A study of Mus musculus with 35 samples.

Results

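Oxidative phosphorylation is carried out by 5 enzyme complexes of the mitochondrial inner membrane. Their nuclear-encoded subunits were followed here through reprogramming of mouse bone marrow and tail cells to induced pluripotent stem (iPS) cells. The members were all array probes whose gene name begins with Nduf followed by a, b, c, s or v, with Uqcr, with Cox4 to Cox8 or with Atp5, or is Sdha, Sdhb, Sdhc or Sdhd. These were 113 probes for 82 genes, out of 41174 gene probes on the array. Of the genes, 35 belong to complex I, 4 to complex II, 7 to complex III, 17 to complex IV, 15 to complex V, and 4 were matched by name without being subunits of a complex. Ndufa4, named for complex I, was counted with complex IV, in which its protein is found. Subunits encoded by mitochondrial DNA were not matched by the rule.

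Expression was measured with 1-colour (Cy3) Agilent arrays in 30 iPS clones, 2 embryonic stem (ES) cell lines and 3 source cell populations. The source cells came from 6-week-old mice that carry a Nanog reporter gene. PaS cells are bone marrow mesenchymal stem cells sorted as PDGFRα+ Sca-1+, OP cells are the bone marrow cells sorted as negative for both markers, and both were depleted of CD45+ and Ter119+ blood cells. TTF are cultured tail tip fibroblasts. All clones received retroviral Oct3/4, Sox2 and Klf4 with DsRed, and 4F-clones received c-Myc in addition to the 3 factors of the 3F-clones. With 3 sources and both factor sets they make 6 groups of 5, written for example 4F-PaS-iPS for PaS cells with 4 factors. The ES lines were EB-3 and RF 8, with 1 array each, and PaS, OP and TTF cells had 1 array each. The iPS cells were maintained on a feeder layer of SNL fibroblasts, so RNA of other cells can be part of a sample, and in such bulk samples fewer cells of a type and less RNA per cell cannot be told apart. Each clone is 1 line, and p-values rest on the spread between clones, which includes that between the slides they lay on. This spread is pooled over the clone groups and the 2 ES lines, so against ES cells it comes almost only from the clones. The difference between the ES lines, given below, is hardly part of it.

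Values are given as a log2 level, on which 0 is the 75th percentile of the array. Levels are compared between arrays for 1 probe and not between probes, except for the median brightness given with the spread between clones. Each gene is given by its brightest probe, called its chosen probe, and counts of genes are over chosen probes. The share of gene probes well above background was 56.6% to 65.7% in clones, 64.3% and 71.2% for the ES lines, and 63% to 64.3% for the source cells. The clones lay on 8 slides of 1 scan session. EB-3 shared a slide of another session with the 3 source arrays, and RF 8 was scanned alone in the remaining session, so neither ES array nor any source array shares a slide with a clone. Sox2 and Nanog were not well above background in 3 clones, #1 and #3 of the 4F-OP-iPS group and #1 of the 4F-TTF-iPS group. In 4F-OP-iPS #2 they were 5.81 and 6.85 log2 units below the mean of the ES arrays. In these 4 clones Pou5f1 was well above background, at 2.86, -1.96 and 1.96 in 4F-OP-iPS #1 to #3 and 1.34 in 4F-TTF-iPS #1. It was 4.76 in EB-3 and 1.88 in RF 8. The 4 clones thus go against the label of a pluripotent cell by Sox2 and Nanog, and not all of them by Pou5f1. Results that rest on them are also given without them. In PaS, OP and TTF cells Pou5f1, Sox2 and Nanog were not well above background. Of 9 haematopoietic markers 8 were well above background on the TTF-cells array, with a summed linear level of 547 against 1.82 in PaS-cells, 1.34 in OP-cells and at most 11.1 in any clone.

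Complex I (NADH dehydrogenase) and complex II (succinate dehydrogenase) feed electrons into the respiratory chain, complex III passes them to cytochrome c, complex IV (cytochrome c oxidase) reduces oxygen, and complex V (ATP synthase) uses the resulting proton gradient to make ATP. Most subunits are expressed in nearly all cells, but several complex IV subunits exist as pairs of isoforms. Cox6a2, Cox7a1 and Cox8b are known from heart and skeletal muscle, Cox6b2 and Cox8c from testis, and Cox4i2 from lung. These 6 genes are called restricted isoforms below, and the other 72 subunits are called widely expressed. Pluripotent cells are known for a reliance on glycolysis although their respiratory complexes are present.

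Promoter sequences are shown for 4 complex IV isoform genes, 2 widely expressed and 2 restricted, as examples of the isoforms whose levels are followed below. Each is the 250 bases before the annotated start, 5′ to 3′ on the strand of the gene, from RefSeq on GRCm38.p6. Capitals mark exact matches to the NRF1 motif GCGCATGCG and its reverse complement CGCATGCGC, or to the ETS motif CCGGAAG and its reverse complement CTTCCGG, the core bound by GABP. NRF1 and GABP are known regulators of nuclear genes for respiratory subunits.
Cox6a1 (chr5:115348959-115349208, minus strand): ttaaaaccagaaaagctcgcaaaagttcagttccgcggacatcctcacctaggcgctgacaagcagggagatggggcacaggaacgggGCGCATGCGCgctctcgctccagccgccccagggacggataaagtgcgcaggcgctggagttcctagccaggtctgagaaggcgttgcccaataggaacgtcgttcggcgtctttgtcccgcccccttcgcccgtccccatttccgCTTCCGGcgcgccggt
Cox6b1 (chr7:30626115-30626364, minus strand): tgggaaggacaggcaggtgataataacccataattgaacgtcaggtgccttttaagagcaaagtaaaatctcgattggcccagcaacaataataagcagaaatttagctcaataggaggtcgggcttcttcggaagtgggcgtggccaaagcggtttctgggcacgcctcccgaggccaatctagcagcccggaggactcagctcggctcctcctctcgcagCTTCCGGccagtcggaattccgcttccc
Cox6b2 (chr7:4753095-4753344, minus strand): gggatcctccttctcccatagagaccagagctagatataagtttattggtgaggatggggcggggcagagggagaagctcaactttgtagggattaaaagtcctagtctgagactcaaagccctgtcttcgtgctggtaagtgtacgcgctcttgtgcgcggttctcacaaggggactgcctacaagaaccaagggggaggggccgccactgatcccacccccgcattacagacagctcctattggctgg
Cox7a1 (chr7:30183921-30184170, plus strand): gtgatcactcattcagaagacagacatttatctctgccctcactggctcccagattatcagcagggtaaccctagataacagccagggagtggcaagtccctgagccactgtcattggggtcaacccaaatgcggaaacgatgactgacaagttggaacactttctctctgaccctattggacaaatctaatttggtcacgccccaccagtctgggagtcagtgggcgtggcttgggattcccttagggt
Cox6a1 held overlapping NRF1 matches on both strands and 1 ETS match, Cox6b1 held 1 ETS match, and the windows of Cox6b2 and Cox7a1 held none. Widely expressed complex IV genes without a match to either motif were Cox5a, Cox5b, Cox7a2 (the partner of Cox7a1), Cox7b, Cox7c and Ndufa4. Windows of 300 bases, from 250 before to 50 after the start, were found by symbol for 61 of the 72 widely expressed subunits and for 3 of the 6 restricted isoforms. The NRF1 motif stood in 8 (13.1%) of the 61 and in 527 (1.95%) of 27025 genes with a window. This motif was chosen after a longer form, with 1 further C at its end, had been counted, which stood in 5 (8.2%) and 290 (1.07%). The ETS motif stood in 16 (26.2%) of the 61 and in 2683 (9.93%) of all. The NRF1 and ETS matches did not overlap in the printed windows. The median number of CG dinucleotides was 20 in the windows of the widely expressed subunits, 7 in those of the restricted isoforms and 8 over all genes.

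The widely expressed subunits varied little between clones. Their standard deviation between clones of 1 group had a median of 0.17 log2 units over 72 genes, with a range of 0.11 to 0.43, against 0.42 over the 27623 probes tested. Of the 72 genes 71 lay below that median. They are bright, with a median level of 4.90 against -1.30 over all tested probes and -0.23 for the 4 restricted isoforms tested. The sets were not matched for level, and the part of level in the spread was not tested. Of the restricted isoforms, Cox6b2, Cox7a1 and Cox6a2 had standard deviations of 0.48, 0.94 and 1.28. Cox8c had 1.33 by its signal, but it was not well above background in 8 of 30 clones, and with these at the lowest level that counted as well above background on their array it had 0.96.

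**Figure D1:**
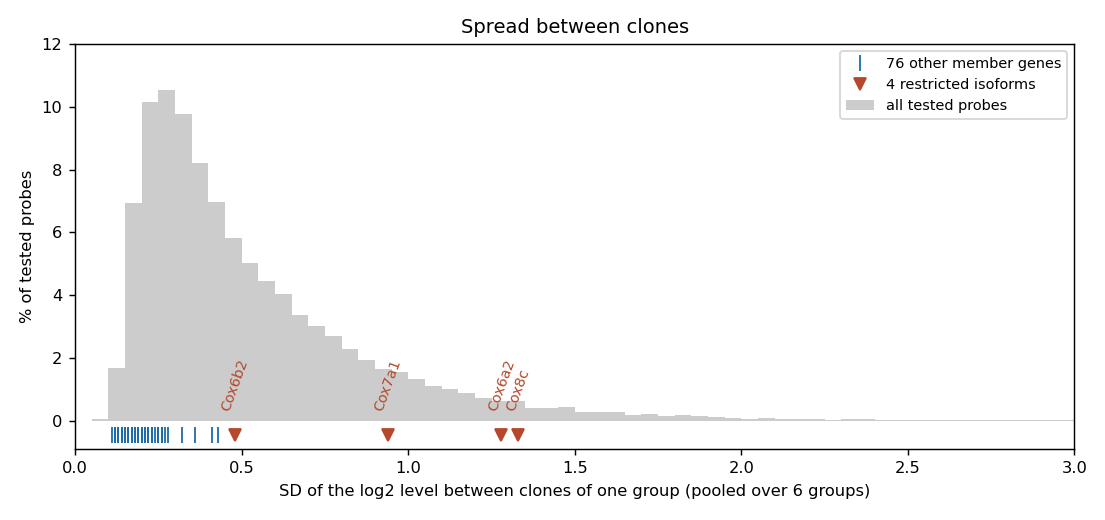
Grey bars give the share of the 27623 tested probes (vertical axis, %) by the standard deviation of their log2 level between clones of 1 group (horizontal axis, the last bar holding all larger values). Blue ticks are the 76 other member genes and red triangles the 4 restricted isoforms tested, which lie at 0.48 to 1.33, to the right of every blue tick. The value of 1.33 is that of Cox8c, whose signal was not well above background in 8 of 30 clones. The sets were not matched for signal level.

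The medians of the complexes lay close together in all clone groups. Over the 72 widely expressed subunits, the median level relative to the mean of all clones ranged from -0.26 to 0.27 in the 30 clones. Its group mean was 0.06 ± 0.21 (SD, n = 5) in 4F-PaS-iPS, -0.00 ± 0.07 in 3F-PaS-iPS, 0.07 ± 0.12 in 4F-OP-iPS, -0.12 ± 0.10 in 3F-OP-iPS, 0.02 ± 0.10 in 4F-TTF-iPS and -0.01 ± 0.04 in 3F-TTF-iPS clones. The widest spread within a group was that of the 4F-PaS-iPS clones, whose lowest value, -0.26, was also the lowest of all clones. The ES lines lay outside this range on the upper side for EB-3, at 0.55, and within it for RF 8, at -0.20. The single arrays stood at -0.08 for PaS-cells, 0.40 for OP-cells and 0.40 for TTF-cells.

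**Figure D2:**
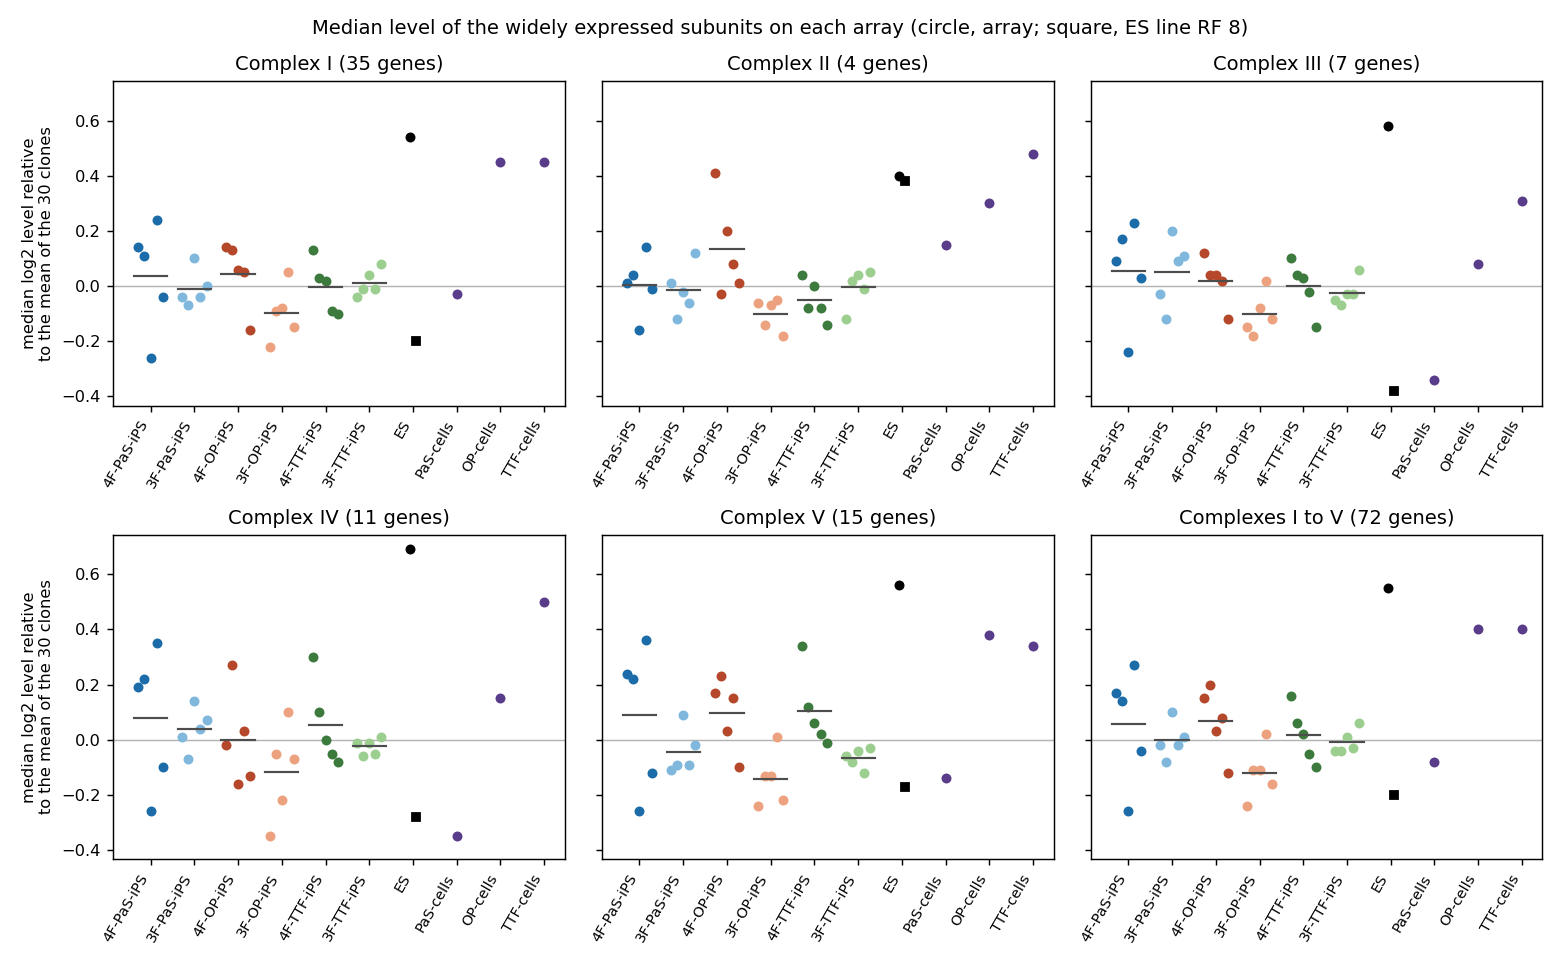
Each point is 1 array, and its height is the median over the widely expressed subunits of a complex of the log2 level minus the mean of the 30 clones (bars, mean of 5 clones, square, ES line RF 8). Over complexes I to V the clones lie between -0.26 and 0.27, while EB-3 stands at 0.55 and RF 8 at -0.20.

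The source of the cells was compared first, by limma over 10 clones a source with both factor sets averaged. None of the 80 member genes that could be tested differed between PaS- and OP-iPS clones at an adjusted p under 0.05, where 3.69% of all tested probes did. Cox4i2 and Cox8b were too dim to be tested. At an unadjusted p under 0.05, 5 of 80 member genes were counted, with 21.5% of all probes. The median difference was 0.08 log2 units (56 of 80 positive) against 0.03 over all tested probes, and 0.01 after quantile normalization. Within the 3 slides that held clones of both sources the median was -0.28, 0.18 and 0.19. The first of these slides held 4F-PaS-iPS #3 and #5 and 4F-OP-iPS #1 and #2, the last 2 being among the 4 clones named above. The second, with 0.18, held 4F-PaS-iPS #2 and 4F-OP-iPS #3, #4 and #5, of which #3 is also among the 4. PaS- against TTF-iPS clones gave 0 member genes by limma (1 at an unadjusted p under 0.05, with 16.6% of all probes) where 1.3% of all probes were called. OP- against TTF-iPS clones also gave 0 (2 at an unadjusted p under 0.05, with 10.2% of all probes) where 0.029% of all probes were called. The median standard error was 0.10, so a difference of a widely expressed subunit had a 95% interval of about ± 0.20 log2 units around its estimate.

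c-Myc was the second axis. In OP-iPS clones 7 of 80 member genes (8.75%) differed between 3F and 4F by limma, where 8.1% of all probes did. Higher in 3F-clones were the 2 restricted isoforms Cox6a2 and Cox8c (4.83% of all probes were higher), and 5 genes were lower (3.27% of all probes), among them Ndufb5, Sdhd, Atp5a1 and Atp5g3. After quantile normalization 3 members were higher and 0 lower in OP, so none of these 5 lower calls held there. In TTF-iPS clones 4 member genes (5%) differed, against 10.1% of all probes. Cox6a2, Cox8c and Cox7a2l were higher in 3F-clones and Ndufb2 was lower, against 5.75% and 4.36% of all probes in these directions. After quantile normalization 7 were higher and 1 lower in TTF. In PaS-iPS clones 0 genes passed (7 at an unadjusted p under 0.05, with 17.3% of all probes), where 0.0217% of all probes were called. Averaged over the 3 sources 13 genes (16.2%) passed, 3 higher and 10 lower in 3F-clones. Over all probes 21.2% passed, 11.3% higher and 9.89% lower. Among the chosen probes the share of members called was near or below that of all probes in the OP, TTF and pooled comparisons. Of 27 further member probes that could be tested, 1 differed in call from its gene's chosen probe in PaS, 4 in OP, 4 in TTF and 10 over the 3 sources.

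Ndufb5, an accessory subunit of complex I, had the smallest adjusted p over the 3 sources among the chosen probes. Its level was 1.96, 1.82, 0.97, 2.31 and 1.29 in the clones 4F-PaS-iPS #1 to #5 and 0.86 to 1.15 in the 3F-PaS-iPS clones. The highest values were those of #1 and #4, which lay on a slide of their own. These clones had the lowest shares of gene probes well above background, 56.6% and 56.7%. It was 1.15 to 1.70 in 4F-OP-iPS and 0.61 to 1.04 in 3F-OP-iPS clones, without overlap. In TTF-iPS clones it was 1.41 to 1.65 with 4F and 0.83 to 1.51 with 3F, where a single 3F-clone reached into the 4F range. Over the 3 sources Ndufb5 was 0.55 ± 0.10 (SE) log2 units lower in 3F-clones, with means of 0.98 and 1.53 and a limma adjusted p of 0.000748. With the slide as a random block the adjusted p was 0.028, and Ndufb5 was the member gene that passed there, with 3.74% of all probes. Without the 4 clones named above it was 0.00685.

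Complex I and complex V supplied the other lower genes. In complex I, 6 of 35 genes were lower and 1 was higher in 3F-clones over the 3 sources. Of all tested probes 9.89% were lower and 11.3% higher. Among the lower genes were the core subunits Ndufs1 and Ndufs8 and the accessory subunits Ndufa9, Ndufb2 and Ndufb5, with differences from 0.20 (Ndufa9) to 0.55 (Ndufb5) log2 units. Ndufa6, an accessory subunit, was higher by 0.33 ± 0.11 (SE), with an adjusted p of 0.0279. In complex V, Atp5a1 (the catalytic core's α subunit), Atp5f1 (the stalk), Atp5g3 (the membrane ring) and Atp5j2 (the membrane part) were lower by 0.21 to 0.31, and 14 of 15 genes had a negative difference (12 of 15 after quantile normalization). Over all tested probes the median difference was 0.03, and their share of negative differences was not counted. Atp5g3 ranged from 6.56 to 7.02 in 4F-OP-iPS and from 6.29 to 6.52 in 3F-OP-iPS clones, without overlap. Its difference over the 3 sources was -0.27 ± 0.07 (SE), with an adjusted p of 0.00497. The further probe of Atp5a1 gave -0.07 over the 3 sources (adjusted p = 0.66) and -0.03 in OP, and so did not pass. Of the further probes of Atp5f1, 1 was lower by 0.26 (adjusted p = 0.0231) and 1 was higher by 0.50 (adjusted p = 0.00975). The 3 genes Atp5g1, Atp5g2 and Atp5g3 encode the same mature ring protein, and neither of the first 2 passed. The median of all 80 members over the 3 sources was -0.09, and after quantile normalization the calls split into 12 higher and 4 lower in place of 3 and 10, so the direction of small differences depended on the scaling.

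In OP-iPS clones the median difference of 3F minus 4F was -0.25 in complex II and -0.20 in complex III, against -0.13 in complex I and -0.21 in complex V. After quantile normalization these medians were -0.15, -0.05, 0.01 and -0.05, and without the 4 clones named above -0.17, -0.07, -0.05 and -0.21, so the sign for complex I depended on the scaling. Sdhd, a membrane anchor of complex II, ranged from 4.17 to 4.43 in 4F-OP-iPS and from 3.86 to 4.01 in 3F-OP-iPS clones, without overlap. The difference was -0.39 ± 0.11 (SE), with an adjusted p of 0.0317, and it did not pass after quantile normalization. By its chosen probe, Sdha, the flavoprotein of complex II, did not pass in a comparison of 3F with 4F. Its further probe, well above background in all 30 clones, gave -0.58 in PaS (adjusted p = 0.0488), -0.39 in OP (adjusted p = 0.0269) and -0.38 over the 3 sources (adjusted p = 0.000187), so the probes of Sdha disagreed in call. Sdhb and Sdhc did not pass. In complex III no gene passed by its chosen probe, while the further probe of Uqcrq passed in OP (1.09, adjusted p = 0.00888) and over the 3 sources (0.59, adjusted p = 0.00442), where the chosen probe gave 0.14 in OP and did not pass.

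In TTF-iPS clones Ndufb2, an accessory subunit of complex I, ranged from 4.59 to 5.07 with 4F and from 4.15 to 4.37 with 3F. The difference was -0.51 ± 0.15 (SE), with an adjusted p of 0.0286. Cox7a2l, which encodes a factor that joins complexes III and IV into supercomplexes, ranged from 3.10 to 3.57 with 4F and from 3.91 to 4.03 with 3F. It was higher by 0.54 ± 0.15 (SE), with an adjusted p of 0.0249. Neither gene overlapped between the groups. Without the 4 clones named above, 0 of 80 members passed in OP-iPS clones, 4 (all higher) in TTF-iPS clones and 5 over the 3 sources, where 0.254%, 8.1% and 16.1% of all probes passed. Ndufb2 no longer passed in TTF-iPS clones then (-0.44, adjusted p = 0.0903), while Cox7a2l did (0.57, adjusted p = 0.0152). The count in OP-iPS clones was also 0 when either 4F-OP-iPS #1 or 3F-OP-iPS #5 alone was left out, where 2.72% and 3.65% of all probes passed. Within a source, 3F- and 4F-clones never shared a slide, and with the slide as a random block 0 members passed in OP- and in TTF-iPS clones, where 0.764% and 0.0253% of all probes did. In that fit the correlation within slides was 0.33.

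**Figure D3:**
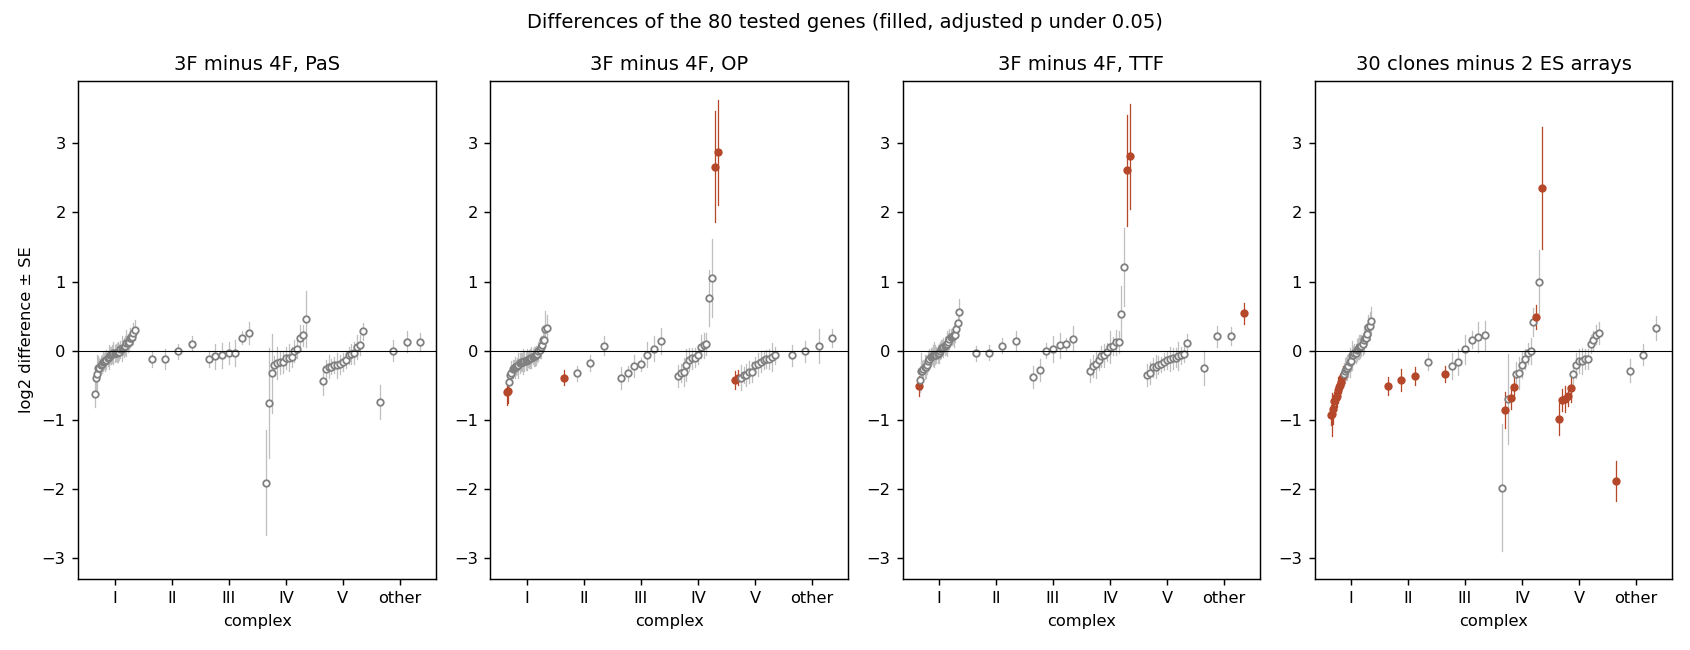
Log2 differences (vertical axis, ± SE) of the 80 tested genes, sorted within each complex, for 3F- minus 4F-clones of each source and for the 30 clones minus the 2 ES arrays. Filled red points have a limma adjusted p under 0.05. The 2 red points above 2.5 in the OP and TTF panels are Cox6a2 and Cox8c.

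Cox6a2 encodes the muscle form of subunit 6a of complex IV and was the member that had the widest span over the 35 arrays. Its level was 1.71, -3.95, -3.33, 1.34 and -2.68 in the clones 4F-PaS-iPS #1 to #5 and -3.73 to -2.95 in the 3F-PaS-iPS clones. The values of 4F-PaS-iPS #1 and #4 stood above all 28 other clones, and these 2 clones shared a slide that held no other array of the series used here. They also had the lowest shares of gene probes well above background, 56.6% and 56.7%. It was -5.06, -4.36, -5.09, -3.69 and -5.29 in the 4F-OP-iPS clones and -3.51, -0.11, -2.31, -2.17 and -1.05 in the 3F-OP-iPS clones. It was -4.62 to -3.50 in 4F-TTF-iPS and -1.84 to -0.90 in 3F-TTF-iPS clones. The 3F- and 4F-clones did not overlap for OP or TTF, and in PaS the 3F-clones lay within the range of the 4F-clones.

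The difference of 3F minus 4F was 2.87 ± 0.76 (SE) log2 units in OP (7.30-fold, adjusted p = 0.0218), 2.81 ± 0.76 in TTF (7.02-fold, adjusted p = 0.02) and -1.91 in PaS, which did not pass. The difference between sources was itself tested by the interaction term of limma. Cox6a2 was the only one of the 80 members that passed (adjusted p = 0.0368), where 0.532% of all probes did. With normexp background correction the differences were 1.58 in OP (adjusted p = 0.118) and 1.60 in TTF (adjusted p = 0.1), so neither passed, and the adjusted p of the interaction was 0.0247. With the slide as a random block the adjusted p was 0.214 in OP, 0.323 in TTF and 0.161 for the interaction. Without the 4 clones named above it was 0.361, 0.0486 and 0.12. The 4F-OP-iPS clones kept there, #4 and #5, stood at -3.69 and -5.29, still below every 3F-OP-iPS clone, so that fit compared fewer clones that again did not overlap. No PaS-iPS clone was left out there. The interaction had an adjusted p of 0.0517 after quantile normalization, and it did not pass on leaving out any of 14 single clones of the 30, among them 4F-PaS-iPS #1 (0.0764) and #4 (0.0929). The widely expressed partner Cox6a1 ranged from 7.81 to 8.61 over the 30 clones and passed in no comparison of 3F with 4F.

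Cox8c, the testis form of subunit 8, was well above background in 22 of 30 clones. The 8 others were #1 of 4F-PaS-iPS, #1 to #3 of 4F-OP-iPS, #1 of 3F-OP-iPS, and #1, #2 and #5 of 4F-TTF-iPS. All 4 clones lowest in Sox2 and Nanog were among them. Its level was -8.25, -7.79, -8.45, -4.01 and -5.35 in the 4F-OP-iPS clones and -6.51, -3.91, -3.77, -2.54 and -3.81 in the 3F-OP-iPS clones. It was -7.09, -6.43, -4.76, -5.02 and -6.50 in 4F-TTF-iPS and -4.09 to -2.36 in 3F-TTF-iPS clones. The difference was 2.66 ± 0.80 (SE) in OP (adjusted p = 0.0375) and 2.61 ± 0.80 in TTF (adjusted p = 0.0364). These values take dim clones at their measured signal. With each dim clone at the lowest level that counted as well above background on its array, the difference was 1.35 in OP and 2.01 in TTF, with no test. With normexp it was 0.64 in OP (adjusted p = 0.322) and 0.80 in TTF (adjusted p = 0.165). Without the 4 clones it was 0.57 in OP (adjusted p = 0.874) and 2.33 in TTF (adjusted p = 0.0471). In PaS-iPS clones it was -6.20 to -1.66 with 4F and -5.57 to -3.71 with 3F, with overlap. The adjusted p of the interaction was 0.1347. Cox8a, the widely expressed form, ranged from 6.41 to 7.15 over the 30 clones.

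Cox7a1, the muscle form of subunit 7a, ranged from 0.07 to 4.40 with a median of 2.45 over the 30 clones, and no comparison between clone groups passed. Its lowest 3 values, 0.07, 0.85 and 0.91, were those of #2 and #1 of 4F-OP-iPS and #1 of 4F-TTF-iPS, 3 of the 4 clones lowest in Sox2 and Nanog. Cox7a2, its widely expressed partner, ranged from 4.72 to 5.51. Cox6b2, the testis form of subunit 6b, ranged from 1.55 to 3.85, with its lowest value in 4F-OP-iPS #2. Cox6b1, the widely expressed form, ranged from 1.08 to 1.86. Neither Cox6b2 nor Cox6b1 passed between clone groups. Cox7b ranged from 3.92 to 4.98 and Cox4i1 from 6.24 to 7.37 over the clones. Cox4i2 and Cox8b were each well above background in 1 clone, 4F-OP-iPS #4 for Cox4i2.

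**Figure D4:**
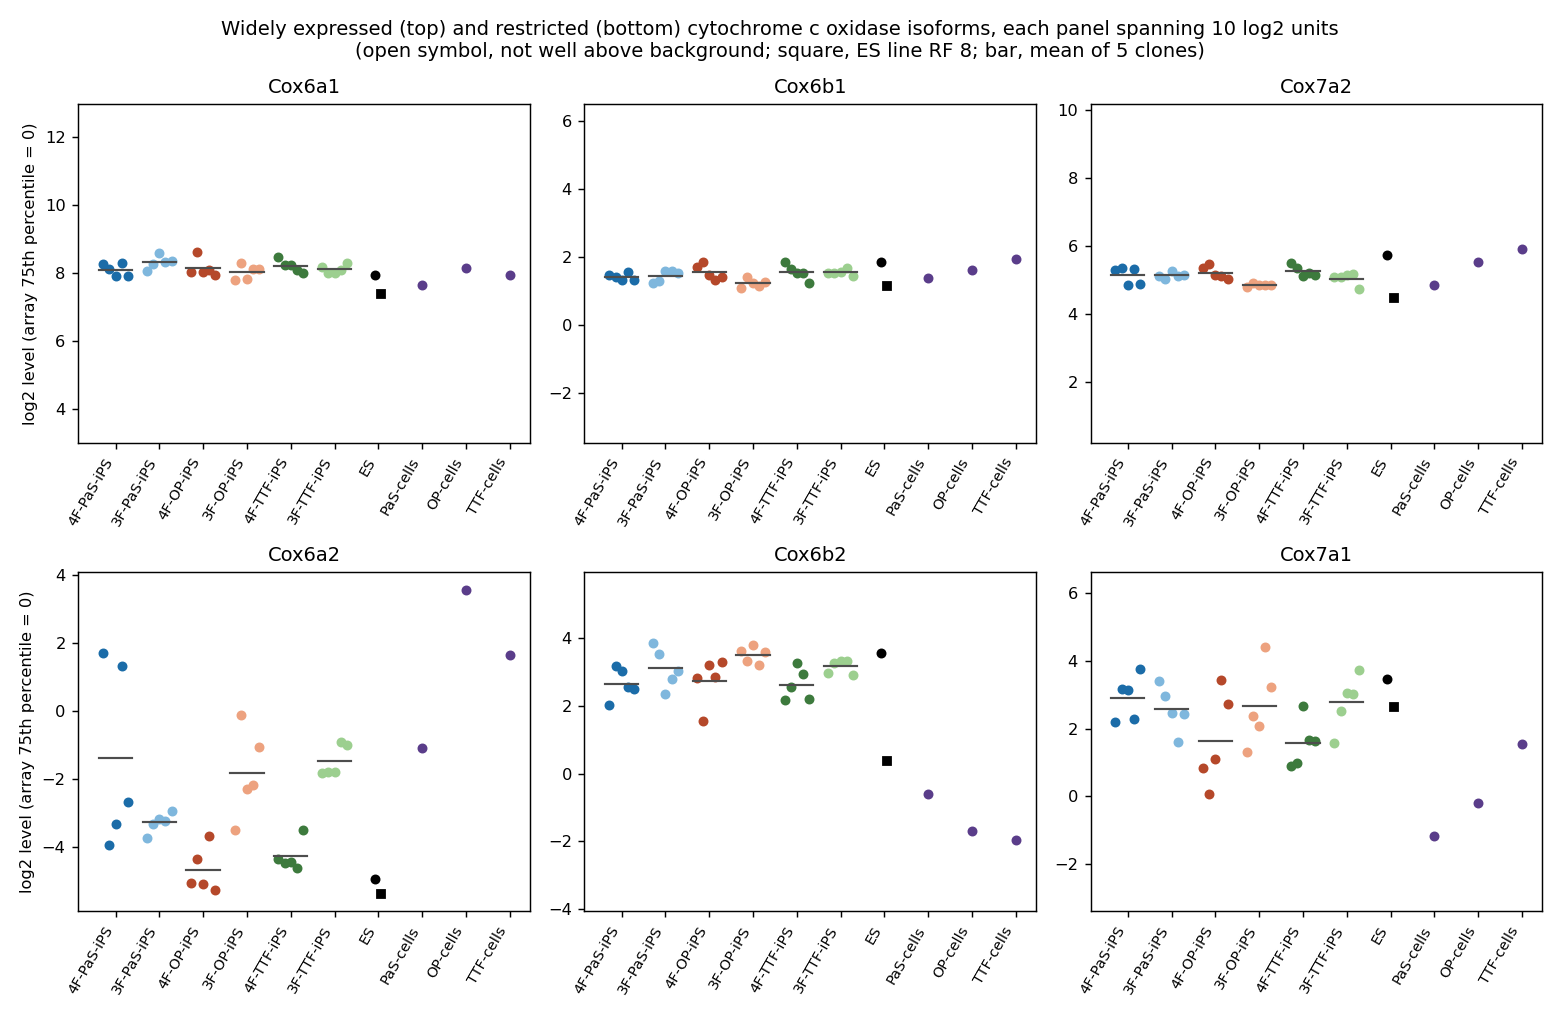
Log2 level (vertical axis, 0 is the array's 75th percentile, each panel spans 10 units) on every array for 3 widely expressed complex IV isoforms (top) and their restricted partners (bottom), with bars at the mean of 5 clones and a square for RF 8. Over the clones Cox6a1, Cox6b1 and Cox7a2 keep within 1 unit, while Cox6a2 spans -5.29 to 1.71 and Cox7a1 0.07 to 4.40.

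The clones were next compared with the ES lines, which asks how close the clones come to ES cells. Of 80 member genes 26 (32.5%) passed by limma, 2 higher and 24 lower in clones, where 52.4% of all tested probes passed, 23.6% higher and 28.8% lower. At least 2-fold were 2 members (Cox6a2 and Cox4nb), where 36.2% of all probes were called with that minimum. The median difference of the members was -0.16, that of all tested probes -0.11, and after quantile normalization the members' median was -0.00 with 13 higher and 18 lower. The ES arrays were scanned in other sessions than the clones and read with other versions of the scanner software, so scan session and cell type cannot be told apart. Of 14 fibroblast and mesenchymal markers 10 were higher in the clones, and the summed linear level of that list was 1.98 in EB-3, 157 in RF 8 and 84.8 to 413 in the clones; its part in the results was not tested.

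The 2 ES arrays differed from each other in the members. EB-3 was above RF 8 in 75 of 80 member genes, against 47.8% of all tested probes, and the median difference was 0.64 log2 units against -0.06. The mean of the clones lay between the 2 ES arrays for 44 of 80 members (55%), against 25.8% of all probes. Both ES arrays were above every clone for 8 members (10%), against 14.4% of all probes, and both were below every clone for 0 members, against 9.99%. EB-3 was above every clone for 44 members (55%, against 25.8% of all probes) and RF 8 was below every clone for 24 (30%, against 18.4%). With RF 8 left out 1 ES array remains, and the spread would come from the clones alone, so no count of calls is given for that fit. With 1 array for each line, line and scan session cannot be told apart.

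Complex I had 11 of 35 genes lower in clones and 0 higher, where 28.8% of all tested probes were lower. Its median difference was -0.15, and 0.04 with 19 of 35 positive after quantile normalization, so its sign depended on the scaling. Ndufs6, an accessory subunit, was 5.94 and 5.15 in the ES arrays and 4.42 to 4.90 with a median of 4.59 in the clones, without overlap. The difference was -0.93 ± 0.14 (SE), with an adjusted p of 4.96e-06, and the further probes of this gene gave -0.97 and -1.05. Ndufv2, a core subunit, was lower by 0.73 and Ndufab1, the acyl carrier protein, by 0.68. The 2 further tested probes of Ndufab1 gave 0.34 and 0.60 and did not pass (adjusted p = 0.356 and 0.177), so the probes of this gene differed in sign. Complex II had 3 of 4 genes lower: Sdha (-0.37 ± 0.13 SE), Sdhb (-0.43 ± 0.16) and Sdhd (-0.51 ± 0.13), with adjusted p of 0.0147, 0.0247 and 0.00182. Sdhb had an adjusted p of 0.0632 with the slide as a random block. In complex III the Rieske protein gene Uqcrfs1 was the 1 gene of 7 whose chosen probe passed, at -0.34 ± 0.12 (SE) and an adjusted p of 0.0228, and it did not pass after quantile normalization, with an adjusted p of 0.241. The further probe of Uqcrq gave -1.52 (adjusted p = 7.24e-05), while its chosen probe gave 0.20 and did not pass.

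In complex V 5 of 15 genes were lower, where 28.8% of all tested probes were. Atp5g1, 1 of the 3 genes of the membrane ring, was 5.46 in EB-3, 5.28 in RF 8 and 3.89 to 5.03 in the clones. Its difference was -0.99 ± 0.23 (SE), with an adjusted p of 0.000841, while Atp5g2 and Atp5g3 did not pass. In complex IV Cox4i1, Cox7c and Ndufa4 were lower, by 0.52, 0.86 and 0.69 log2 units. Cox6a1 was higher by 0.49 ± 0.17 (SE), with an adjusted p of 0.0155, at 7.94 and 7.38 in the ES arrays. It did not pass after quantile normalization (adjusted p = 0.11). Cox6a2 was -4.94 in EB-3 and -5.39 in RF 8 against a clone median of -3.28, a difference of 2.35 ± 0.88 (SE) with an adjusted p of 0.0275, and of 1.02 (adjusted p = 0.225) with normexp. Outside the complexes Cox4nb, which codes for a subunit of the endoplasmic reticulum membrane complex and shares only the name, was lower by 1.88 ± 0.29 (SE), with an adjusted p of 6.83e-06. Its level was 3.65 and 3.36 in the ES arrays and 0.42 to 2.74 in the clones. The assembly factor Ndufaf1 did not pass here or in any other comparison.

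Cox6b2 was lower on the 3 source arrays than in the ES lines and every clone, and Cox8c was not well above background in PaS, OP or TTF cells, nor in the 8 clones named above. The ES arrays were at least 19.3-fold above PaS-cells, 12-fold above OP-cells and 13.2-fold above TTF-cells for this gene, and the 3F-TTF-iPS clones at least 9.63-fold above TTF-cells. No such bound above OP-cells could be given for the 4F-OP-iPS clones. Such a bound sets the dim array at the lowest level that counted as well above background there. Cox6b2 was -0.60 in PaS-cells, -1.70 in OP-cells and -1.97 in TTF-cells, below the lowest clone at 1.55. EB-3 stood at 3.54 and RF 8 at 0.38, so RF 8 lay below every clone and above the 3 source arrays.

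The source arrays have no replicates, so no test was made, and a gene was counted when the array was at least 2-fold from the mean of its own 10 clones and outside their range. By this rule 7 of 80 members (8.75%) were counted for PaS-cells, 9 (11.2%) for OP-cells and 9 (11.2%) for TTF-cells. Over all tested probes the shares were 42.7%, 39.9% and 45.3%. PaS-cells had 1 higher and 6 lower members (15.7% and 27% of all probes), OP-cells 6 higher and 3 lower (17.5% and 22.5%), and TTF-cells 7 higher and 2 lower (17.7% and 27.6%). Cox8c, dim on all 3 arrays, is among the lower ones by its signal. The median difference of the members was -0.12, 0.41 and 0.35 log2 units, where all tested probes had -0.25, -0.10 and -0.22. After quantile normalization it was -0.11, 0.10 and 0.11, where all tested probes had 0.01, 0.01 and -0.08. Members of PaS-cells thus lay above all probes by the first scaling and below them by the second. Against EB-3, the array of the same slide, the median was -0.66, -0.25 and -0.08, where all tested probes had -0.49, -0.28 and -0.33. The sign for OP-cells and TTF-cells thus depended on the reference, and after quantile normalization the median of TTF-cells against EB-3 was 0.02. The TTF-cells array also held the haematopoietic marker RNA given above, whose part in its values was not tested.

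**Figure D5:**
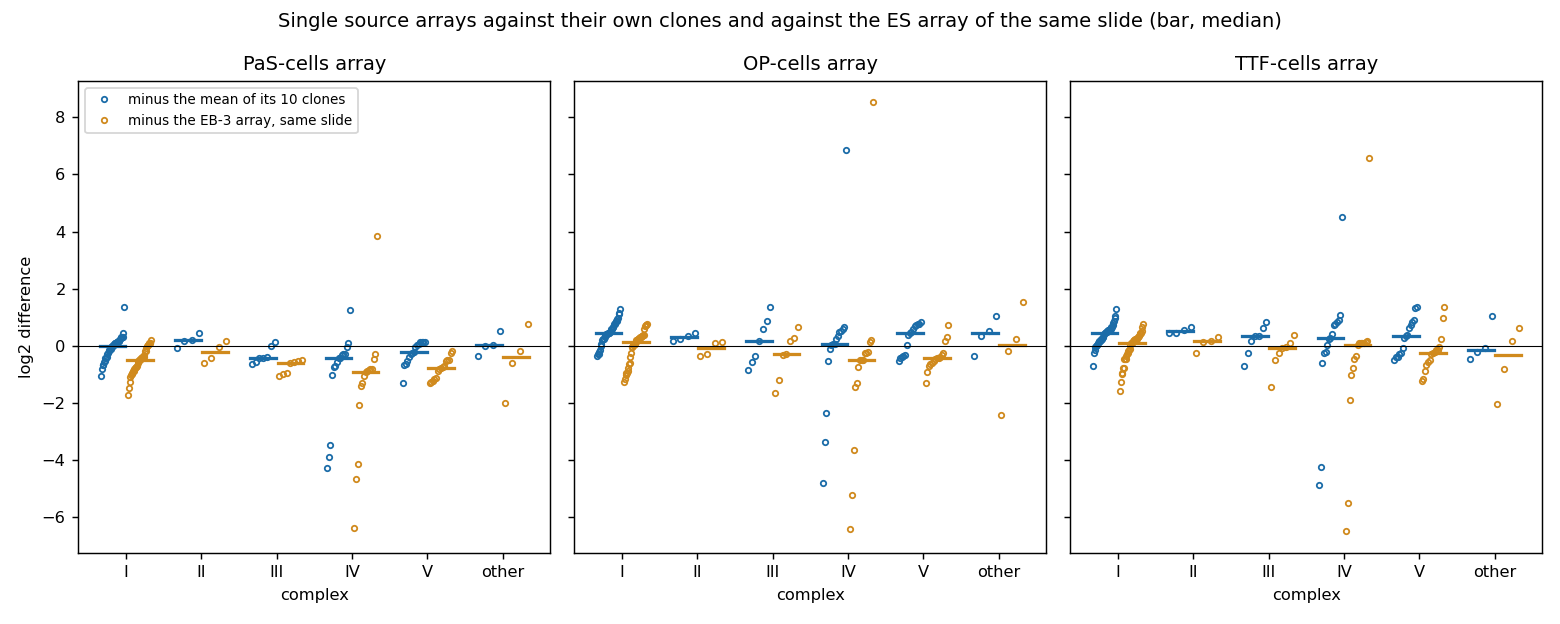
Log2 difference (vertical axis) of each tested member gene between a source array and the mean of its own 10 clones (blue) or the EB-3 array of the same slide (orange), by complex, with bars at the median. The outlying points of complex IV are restricted isoforms, with Cox6a2 at 6.84 above and Cox6b2 at -4.82 below the OP-iPS clones.

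By complex, the median of OP-cells minus its clones was 0.45 in complex I, 0.29 in II, 0.15 in III, 0.07 in IV and 0.44 in V, and that of TTF-cells was 0.46, 0.50, 0.34, 0.27 and 0.35. PaS-cells gave -0.00, 0.19, -0.43, -0.44 and -0.21. All 3 arrays lay above the range of the 30 clones for Ndufa2 and Sdha, and below it for Uqcrc2 and Cox6b2. Cox8c was also lowest there by signal, but both the source arrays and the lowest clones were not well above background, so it has no order. By signal, 6.68% and 14.1% of all tested probes lay above and below. Ndufa2, an accessory subunit of complex I, stood at 4.83, 5.76 and 5.82 in PaS-, OP- and TTF-cells against 3.92 to 4.81 in the clones, with EB-3, also above every clone, at 5.17 and RF 8 at 4.26. Sdha stood at 2.11, 2.05 and 2.06 against 1.32 to 1.98, with EB-3 at 1.92 and RF 8 at 2.10. Uqcrc2, a core protein of complex III, stood at 4.66, 4.90 and 4.91 against 5.01 to 5.59, with EB-3 at 5.17 and RF 8, also below every clone, at 4.97.

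Restricted isoforms gave the widest differences between source cells and clones. Cox6a2 was 3.58 in OP-cells, 1.65 in TTF-cells and -1.08 in PaS-cells. OP-cells thus exceeded every clone, while the other 2 arrays lay within the range of the 30 clones, and TTF-cells exceeded its own clones by 4.52 log2 units. Cox7a1 was -1.17 in PaS-cells and -0.18 in OP-cells, both below the lowest clone, and 1.56 in TTF-cells. Cox4i2 was -2.95 in OP-cells, at least 12.3-fold above the ES arrays and 7.88-fold above the 3F-OP-iPS clones, and was not well above background in TTF-cells. In PaS-cells it was -6.75. Cox8b was well above background in OP-cells, at -5.85, and not in PaS- or TTF-cells. Atp5e, the ε subunit of complex V, was 4.93 in PaS-cells, 6.99 in OP-cells and 7.61 in TTF-cells against 5.86 to 6.63 in the clones, so PaS-cells lay below and the other 2 above all clones.

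Genes around the complexes were counted in 4 lists. Over all tested probes 11.3% were higher and 9.89% lower in 3F-clones over the 3 sources, and 23.6% were higher and 28.8% lower in clones than in the ES arrays. Of 24 electron carriers and assembly factors, 3 were higher and 4 lower in 3F- than in 4F-clones over the 3 sources, and 3 higher and 7 lower in clones than in the ES arrays. Of 21 genes of the TCA cycle and pyruvate dehydrogenase, 1 was higher and 4 lower in 3F-clones, and 3 higher and 3 lower in clones than in ES arrays. Of 15 genes of mitochondrial biogenesis and mitochondrial DNA expression, 0 were higher and 2 lower in 3F-clones, and 2 higher and 8 lower in clones than in ES arrays. Of 9 inner membrane transport genes, 2 were higher and 3 lower in 3F-clones, and 1 higher and 2 lower against ES arrays. PaS- against OP-iPS clones gave 1 called gene in these lists, and PaS- against TTF- and OP- against TTF-iPS clones gave 0, where 3.69%, 1.3% and 0.029% of all probes were called.

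The 3 genes of these lists with the widest called differences were Ppargc1a, Cyct and Slc25a31. Ppargc1a, a coactivator of mitochondrial biogenesis, was 4.64 ± 0.77 (SE) log2 units higher in clones than in the ES arrays (adjusted p = 1.93e-05). Cyct encodes the testis form of cytochrome c. It was 4.57 ± 1.39 (SE) higher in 3F- than in 4F-OP-iPS clones (adjusted p = 0.0407) and 3.54 ± 1.39 in TTF, which did not pass (adjusted p = 0.101). Without the 4 clones lowest in Sox2 and Nanog its difference was 0.03 in OP (adjusted p = 0.994) and 2.36 in TTF (adjusted p = 0.0438), and with the slide as a random block its adjusted p was 0.151 in OP and 0.631 in TTF. Slc25a31 encodes the ADP/ATP carrier of the testis, and it was 2.67 ± 0.59 (SE) higher in 3F-OP-iPS (adjusted p = 0.00807) and 1.92 ± 0.59 higher in 3F-TTF-iPS clones (adjusted p = 0.0373). Without the 4 clones the Slc25a31 differences were 2.17 (adjusted p = 0.301) and 1.81 (adjusted p = 0.0778), and with the slide as a random block the adjusted p was 0.0434 in OP and 0.468 in TTF.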

How the data were processed

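RNA of 35 samples was hybridised to 1-colour Agilent mouse arrays. The deposited scanner files hold intensities (processed signal) that, per the file headers, were background-corrected by Feature Extraction on a design annotated to mm7. A table of log2 values that the authors made in GeneSpring, with each probe centred on its median over the arrays, served as an alternative. No column was left unassigned to a sample.

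The log2 intensity minus the 75th percentile of each array was used, after leaving out control spots and outlier flags. Of 41174 gene probes, 27623 stood well above background throughout 1 or more of the 7 groups (6 clone groups and ES) and were fitted with limma 3.58.1 (R 4.3.3) over 32 arrays, with the 3 source arrays left out. P-values were adjusted by Benjamini-Hochberg over all tested probes, and a gene was called at an adjusted p under 0.05 with no minimum fold. Adjusted p-values in the text are from limma. Each gene was represented by its brightest probe. For 25 genes with several probes, 27 further probes were tested, and their call differed from that of the chosen probe for 10 over the 3 sources (3F against 4F) and for 8 against ES. The fit had been checked on simulated arrays. Python 3.11.15 with pandas 2.3.3 made the tables.

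Alternatives were normexp background correction (offset 50), quantile normalization, the authors' table, no filter on dim probes, a 2-fold minimum, all member probes, slide or clone number as a block, and leaving out arrays. The comparison of source arrays with EB-3, the shorter NRF1 motif, the differences and spread of Cox8c with dim clones at their floor and the alternatives for Cyct and Slc25a31 were chosen after seeing the data. The members and gene lists were chosen with earlier results of these data known. Named genes were, in each comparison, the 3 called members with the widest difference in each direction and the widest of each complex, the isoform sets, the Sdh genes, Ndufaf1, and at most 3 called genes of the other lists. Other members are named where a count of calls needed them, after their values were seen. The number of arrays limits the precision. Results on some items are not reported here.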

Additional observations from a re-analysis of the deposited data

Results flagged for a closer look

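A single clone stood apart from the other 4 of its group, by the gap to its nearest neighbour relative to the range, in 17 of 198 groups over 33 named genes. Chance gives about 1 such array in 20 groups. Values are log2 levels, each with the range of the other 4 clones.

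In complex IV, Cox6a2 was -3.50 in 4F-TTF-iPS #5 (others -4.62 to -4.36). Cox6a1 was 8.61 in 4F-OP-iPS #2 (7.95 to 8.10), and Cox6b2 was 1.55 in the same clone (2.83 to 3.29). Cox7a2 was 4.72 in 3F-TTF-iPS #5 (5.09 to 5.16), and Cox7b was 4.59 in 3F-OP-iPS #3 (3.92 to 4.00). In complex I, Ndufb5 was 1.65 in 4F-TTF-iPS #1 (1.41 to 1.47) and Ndufs6 was 4.70 in 3F-PaS-iPS #1 (4.54 to 4.58). Ndufa6 was 4.28 in 4F-OP-iPS #2 (3.16 to 3.46) and 3.06 in 4F-TTF-iPS #5 (3.55 to 3.59). In complex II, Sdhb was 3.17 in 4F-PaS-iPS #3 (3.48 to 3.59) and 3.65 in 4F-TTF-iPS #1 (3.31 to 3.40). In complex V, Atp5a1 was 6.40 in 4F-TTF-iPS #5 (6.62 to 6.71) and 6.59 in 3F-TTF-iPS #4 (6.42 to 6.46). Atp5g1 was 3.89 in 4F-PaS-iPS #3 (4.71 to 5.03) and 4.81 in 3F-TTF-iPS #5 (4.12 to 4.28). Outside the complexes, Cox7a2l was 3.10 in 4F-TTF-iPS #5 (3.47 to 3.57) and Cox4nb was 2.18 in 4F-OP-iPS #4 (1.34 to 1.45). The clones 4F-TTF-iPS #5, with 4 of these values, and 4F-OP-iPS #2, with 3, were the most frequent.

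The difference between 3F- and 4F-clones of Cox6a2 differed between sources by limma's interaction term with an adjusted p of 0.0368. This call was lost after quantile normalization (0.0517), with the slide as a random block (0.161), without the 4 clones lowest in Sox2 and Nanog (0.12) and on leaving out any of 14 single clones of the 30, 4F-PaS-iPS #1 (0.0764) and #4 (0.0929) among them. The difference was 2.87 in OP and 2.81 in TTF, and -1.91 in PaS, where 4F-PaS-iPS #1 and #4, which lay on a slide of their own, were at 1.71 and 1.34. Without the 4 clones, the 4F-OP-iPS clones kept, #4 and #5, stood at -3.69 and -5.29, still below every 3F-OP-iPS clone.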

How the results depend on the processing

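Counts of member genes called are given per comparison. In the fits they are out of 80 genes, or out of 107 probes where all member probes were counted. For 3F against 4F in OP-iPS clones, 7 became 2 with a 2-fold minimum, 3 after quantile normalization, 3 without the filter on dim probes, and 0 with normexp, with the slide as a random block or without the 4 clones lowest in Sox2 and Nanog. Of all probes 8.1% were called in the main fit and 7.81% after quantile normalization. With normexp it was 1.68%, with the random block 0.764% and without the 4 clones 0.254%. In TTF-iPS clones, 4 became 2 with a 2-fold minimum, 8 after quantile normalization, 8 over all member probes, and 0 with normexp or with the slide as a random or fixed block. Of all probes 10.1% were called in the main fit, 11.6% after quantile normalization, 2.85% with normexp and 0.0253% with the random block. Over the 3 sources, 13 became 2 with a 2-fold minimum, 23 over all member probes, 1 with normexp, 1 with the slide as a random block and 5 without the 4 clones. Of all probes 21.2% were called in the main fit, 9.76% with normexp, 3.74% with the random block and 16.1% without the 4 clones. In PaS-iPS clones 1 member probe passed when all were counted. Against ES, 26 became 14 with normexp and 2 with a 2-fold minimum, where 52.4%, 31.9% and 36.2% of all probes were called. The interaction gave 0 after quantile normalization, with the random block and without the 4 clones. The PaS-cells array gave 4 with normexp, 11 over all probes and 20 against EB-3, the OP-cells array 17 and 14 for the last 2, and the TTF-cells array 14 over all probes. The cause was not tested.

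Leaving out 1 array at a time gave 0 to 3 (3 without 4F-OP-iPS #2) for PaS against OP, 0 for the other source comparisons, and for 3F against 4F 0 to 3 in PaS (3 without 4F-PaS-iPS #3), 0 to 11 in OP, 1 to 7 in TTF and 8 to 20 over the sources (20 without 4F-PaS-iPS #3, and 8 without 4F-OP-iPS #1 or 4F-TTF-iPS #1). It gave 20 to 40 against ES (40 without RF 8) and 0 to 2 for the interaction. Among 34 results on single genes none changed sign under any alternative run, but 25 lost their call with normexp, 21 with the random block and 15 after quantile normalization. The authors' table lost 0. Clone numbers did not pair the samples (16 of 75 pairs correlated over 0.1), and with the clone number as a replicate block the count against ES was 24 and the other counts kept their size (7, 4 and 13 for 3F against 4F in OP, TTF and over the sources). With the slide as a fixed block only PaS against OP (0) and 3F against 4F in TTF could be fitted, because shared slides linked no other pair of groups compared. Dim probes give bounds only.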
